A study of Mus musculus with 10 samples.

Results

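Genes for neurotransmitter receptors were examined in the mouse neuroblastoma line Neuro-2a after knockdown of the nuclear RNA- and DNA-binding protein Sfpq. Members were taken by symbol: the AMPA (Gria), kainate (Grik), NMDA (Grin), delta (Grid) and metabotropic (Grm) glutamate receptors, the GABA-A (Gabr), glycine (Glr), nicotinic (Chrn) and muscarinic (Chrm) receptors and the serotonin receptors (Htr). The prefixes matched 89 of 23553 genes in the files. Of these, 4 were Htra1 to Htra4, serine proteases that share only the prefix, and they were set aside. The 81 receptor genes described divide into 57 genes for subunits of transmitter-gated ion channels and 24 for G-protein-coupled receptors, so that "gated" does not describe every member. For a gene with several RefSeq rows, the row with the highest mean over all 8 libraries stood for the gene.

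Control cells received a small interfering RNA (siRNA) against luciferase (Luc), which mouse cells lack, and knockdown cells an siRNA against mouse Sfpq, both with the reagent RNAiMAX. All groups were kept in 2% serum during knockdown, after expansion in 10% serum, and are labelled as in a differentiated condition. The labels give the strain as C57BL/6+C57BL/6J+CBA for every library. The poly(A) comparison has 3 libraries per siRNA. Total RNA from which ribosomal RNA (rRNA) was removed has 1 per siRNA. RNA polymerase II immunoprecipitation, which the labels also list with 1 library per siRNA, is not analysed here. The cells are 1 line in culture, and a lower level in bulk RNA cannot be told apart from fewer cells that express the gene.

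The unit throughout is RPKM, the reads on a transcript divided by its length and by the library's total. Absolute depth is unknown. Spacing between low values put the poly(A) libraries at 0.628 to 1.27 times the depth of Luc replicate 1, and those of rRNA-depleted RNA at 2.63 and 2.65 times. Sfpq itself lay between 56.8 and 73.0 RPKM in the Luc and between 3.98 and 6.47 in the Sfpq poly(A) libraries, and at 30.8 and 4.43 in rRNA-depleted RNA. Among the Luc libraries, replicate 3 stood somewhat apart (correlations of 0.985 and 0.979 with the others, beside 0.996 for that pair). Neuron markers were present, led by Tubb3 (mean of 437 RPKM) and Stmn2 (230), and all 10 sympathetic neuroblast markers reached 0.5 RPKM, whereas the neurofilament genes Nefl and Nefm were at 0 and 0.00183. Of 8 neuron markers tested, 4 fell and 0 rose (5 of 10 and 3 of 10 for the neuroblast markers, beside 18.6% lower and 21.3% higher over all genes tested), and summed neuron marker levels were 849 to 984 RPKM in Luc and 722 to 794 in Sfpq libraries. Of 3 fibroblast markers tested, Fn1 (34.96 to 47.2 RPKM) and Pdgfrb (0.877 to 1.96) rose. Pdgfra, also tested, was not called. It had 0.333, 0.409 and 0.414 RPKM in Luc and 0.510, 0.727 and 0.683 in Sfpq libraries, without overlap, and passed the filter only through its Sfpq libraries. Summed fibroblast marker levels were 33.8 to 41.0 RPKM in Luc and 44.9 to 55.0 in Sfpq libraries. Nearly all of this was Fn1, at 31.9 to 39.2 in Luc and 42.1 to 51.6 in Sfpq libraries. Dcn, which averaged under 0.5 RPKM, had 0.569, 0.346 and 0.653 in Luc libraries. Its Sfpq libraries had 0.174, 0.357 and 0.305, lower on average but overlapping. Col1a1, Col1a2, Col3a1 and Postn did not exceed 0.196 RPKM, and Thy1 and Lum were at 0. The part of these shifts in the results below was not tested.

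Transmitter-gated channels assemble from several subunits, usually encoded by different genes, and open an ion pore when a transmitter binds. Metabotropic and muscarinic receptors and most serotonin receptors instead act through G proteins. Sympathetic neurons, the lineage of neuroblastoma, are driven by acetylcholine through nicotinic receptors that contain the alpha 3 subunit. Subunit composition sets which ions pass and how a channel responds, and several subunits form no working channel without a partner.

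Averaged over the 6 poly(A) libraries, 10 of the 81 receptor genes reached 0.5 RPKM. They were the nicotinic subunit genes Chrna3, Chrna5, Chrna7, Chrnb1 and Chrnb2, the serotonin-gated channel gene Htr3a, the kainate subunit gene Grik5, the NMDA subunit genes Grin1 and Grin2d and the muscarinic receptor gene Chrm4. The last member inside the threshold was Chrna5 (mean of 0.661), and those just outside were Gria2 (0.488) and Chrnb4 (0.398). Gria2 was above 0.5 RPKM in 2 of the Luc libraries and is described with the others. With the 8 libraries pooled, 11 members reached 0.5, the added gene being Gria2, and in rRNA-depleted RNA 9 did, with Gria2 in and Chrna5 and Grin2d out.

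The other members were at or near 0. Of the 81 genes, 24 were listed at 0 in all 8 libraries, and 39 more had a highest value under 0.1 RPKM. The 24 included Chrna4, Chrna6 and Chrnb3 (nicotinic subunits of brain neurons), Grin2b, Grik2 and the serotonin receptor genes Htr1a, Htr1b, Htr2b, Htr2c, Htr4 and Htr7. Between 0.1 and 0.5 RPKM at their highest lay 6 genes, Chrna1, Gabrd, Gabrr2, Grin3b, Htr3b and Htr6. Chrnb4, the beta subunit gene next to Chrna3, had a mean of 0.394 RPKM in Luc and 0.402 in Sfpq libraries, and reached 0.557 in Luc replicate 3. All 5 glycine receptor genes and both delta receptor genes did not exceed 0.0467 RPKM.

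**Figure D1:**
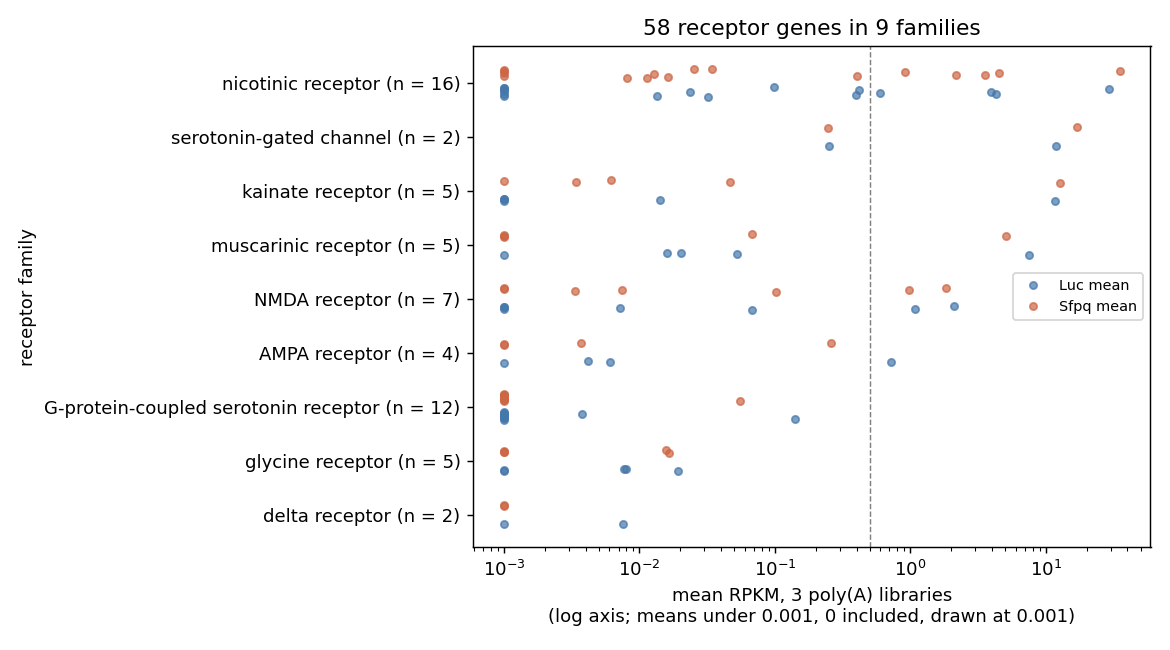
Mean RPKM of 58 receptor genes of 9 families in the 3 Luc (blue) and 3 Sfpq (orange) poly(A) libraries, one point per gene and group, by family; the horizontal axis is logarithmic, the dashed line marks 0.5 RPKM and means under 0.001 are drawn at 0.001. By the mean over both groups, the nicotinic family has 5 genes to the right of the line, the NMDA family 2 and the others 0 or 1.

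Within the kainate, NMDA and nicotinic families, few subunits carried most of the RNA. Kainate receptor genes summed to 11.6 RPKM in Luc libraries on average, nearly all from Grik5, whose product is known to need a partner from Grik1, Grik2 or Grik3, and those genes did not exceed 0.0521. NMDA receptors held an obligatory subunit gene, Grin1, and 1 partner above the threshold, Grin2d. The nicotinic family summed to 38.8 RPKM with Chrna3 at 29.0. These are levels per length, and subunit protein was not measured.

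By the mean of the Luc libraries, Chrna3 was the highest receptor gene at 29.0 ± 0.211 RPKM (SD, n = 3), followed by Htr3a (11.8 ± 0.477), Grik5 (11.6 ± 1.90), Chrm4 (7.48 ± 0.476), Chrnb2 (4.30 ± 0.396), Chrna7 (3.96 ± 0.470), Grin1 (2.10 ± 0.196) and Grin2d (1.09 ± 0.265). The values of Grik5 overlapped those of Htr3a, and those of Chrnb2 overlapped those of Chrna7, so these neighbours are not ordered beyond their spread. Sfpq libraries kept Chrna3 first at 35.1 ± 0.547 RPKM (SD, n = 3). Htr3a (16.97 ± 0.440) then lay above Grik5 (12.6 ± 2.16) with no overlap, and Chrm4 (5.03 ± 0.143) stayed below both. Chrna7 (4.53 ± 0.314) lay above Chrnb2 (3.57 ± 0.513) with no overlap. The mean of Chrnb1 (2.17 ± 0.153) was above that of Grin1 (1.82 ± 0.184), with overlapping values.

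**Figure D2:**
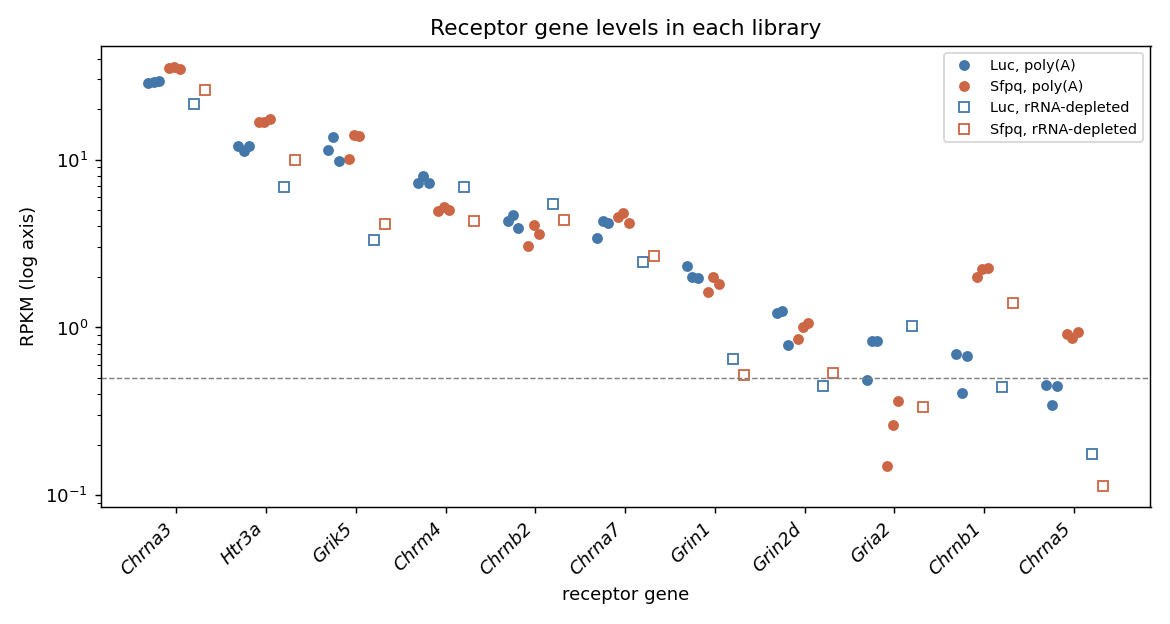
RPKM of 11 receptor genes in every library on a logarithmic axis, ordered by the Luc poly(A) mean; filled circles are the 3 Luc (blue) and 3 Sfpq (orange) poly(A) libraries, open squares the single rRNA-depleted libraries, and the dashed line 0.5 RPKM. Chrm4 and Gria2 have all Sfpq poly(A) values below all Luc values. Chrnb1, Chrna3, Chrna5 and Htr3a have the reverse, and Grik5, Grin1, Grin2d, Chrna7 and Chrnb2 overlap.

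The comparison of Sfpq with Luc in poly(A) RNA asks which of the expressed receptor genes differed after knockdown. Of the 10 tested, 4 rose (Chrnb1, Chrna5, Htr3a and Chrna3) and 1 fell (Chrm4), while 5 did not pass (limma on log2(RPKM + 0.5), Benjamini-Hochberg adjusted p under 0.05 over 11727 genes). Chrna5 reached the filter only through its Sfpq libraries (Luc mean of 0.416 RPKM), while Gria2, high in Luc, missed it, so these counts depend on the filter and are given as a description. Among all genes tested, 40.0% were called, 21.3% as higher and 18.6% as lower, so a call among the receptor genes was not unusual. The same 5 genes were those whose Luc and Sfpq libraries did not overlap, which held for 52.9% of all genes (28.2% higher and 24.7% lower). The members' median log2 change was 0.15, beside 0.05 over all genes tested. It was 0.10 without Luc replicate 1, 0.23 without Luc replicate 2, 0.04 without Sfpq replicate 2 and 0.04 without Sfpq replicate 3. Labels do not say whether replicates were separate cultures. The p-values therefore reflect only how these libraries vary, and that variation may be technical.

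Nicotinic receptor genes above the threshold moved upward or did not pass. Chrnb1 encodes the beta subunit of the muscle-type receptor. Its Luc libraries had 0.692, 0.405 and 0.678 RPKM and its Sfpq libraries 1.99, 2.24 and 2.27. Every Sfpq value was well above every Luc value. Its mean rose 3.66-fold, from 0.592 ± 0.162 to 2.17 ± 0.153 RPKM (SD, n = 3; log2 fold change 1.30, SE 0.14, limma adjusted p = 0.000142), and the log2 scale with its added 0.5 understates the change of a gene this low. The other muscle-type subunit genes were scarce: Chrna1, Chrnd, Chrne and Chrng did not exceed 0.150 RPKM in any library. Of 10 skeletal muscle markers, Myod1, Myf5 and Myf6 were at 0 in all poly(A) libraries, whereas the myosin gene Myh3 (mean of 20.6 RPKM), Actn2 (1.62) and Acta1 (0.792) were present. These 3 were tested and 0 passed (limma, adjusted p under 0.05).

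The genes beside Chrnb1 were followed for comparison, since overlapping or run-on RNA could share reads. On the mouse reference its measured neighbours are Zbtb4, a zinc finger protein gene that rose from 0.364 to 0.710 RPKM (log2 fold change 0.49, SE 0.14, limma adjusted p = 0.018; its Luc mean is under the filter, which it passed through its Sfpq libraries), and Fgf11, which was at 0.0203 in Luc and 0.0512 in Sfpq libraries. The neighbours' part in the rise of Chrnb1 was not tested.

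Chrna3 and Chrna5 belong to one gene cluster with Chrnb4 on chromosome 9. Chrna3, the alpha subunit gene of ganglionic receptors, had 28.8, 28.9 and 29.2 RPKM in the Luc and 34.9, 35.7 and 34.6 in the Sfpq libraries. The groups were tight and separate, but the shift was small, 1.21-fold (log2 fold change 0.27, SE 0.09, limma adjusted p = 0.0367). This call was fragile. The limma adjusted p lay between 0.0691 and 0.141 without Luc replicate 1, Luc replicate 2 or any 1 of the Sfpq libraries. The limma adjusted p was 0.0623 with median-ratio scaling and 0.0625 with a replicate block. The log2 change in these fits lay between 0.23 and 0.28. Chrna5, an accessory alpha subunit gene, was at 0.453, 0.344 and 0.450 RPKM in the Luc and 0.912, 0.866 and 0.938 in the Sfpq libraries. Its Sfpq values were again all above its Luc values, with a 2.18-fold rise of the mean from 0.416 ± 0.0616 to 0.906 ± 0.0366 RPKM (SD, n = 3; log2 fold change 0.62, SE 0.12, limma adjusted p = 0.00355). The gene was tested only because its Sfpq values were high enough to bring the mean past 0.5. With no filter on low values, which does not select it that way, its limma adjusted p was 0.00251, and with a pseudocount of 0.1 its log2 change was 0.97.

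Chrna5 overlaps Chrna3 on the mouse reference. Without knowledge of how strand was used, reads in the stretch shared by such a pair cannot be told apart. The size of that stretch in the build used for the RPKM was not examined. The ratio of Chrna3 to Chrna5 was 63.6, 84.0 and 64.9 in the Luc and 38.2, 41.2 and 36.9 in the Sfpq libraries. The groups did not overlap (two-sided exact permutation p = 0.1, the smallest that 3 against 3 libraries allow). The ratio restates the changes of the pair, and the part of shared reads in them was not tested. Chrnb4, the third gene of the cluster, did not reach 0.5 RPKM, and Psma4, the proteasome gene on the other side, was at 198 RPKM in Luc and 170 in Sfpq libraries without passing (log2 fold change -0.20, SE 0.13, limma adjusted p = 0.233).

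The remaining nicotinic genes did not pass. Chrnb2, the commonest beta subunit gene of brain receptors and the leading one here, was at 4.33, 4.68 and 3.89 RPKM in the Luc and 3.04, 4.06 and 3.61 in the Sfpq libraries (log2 fold change -0.24, 95% interval -0.54 to 0.05, limma adjusted p = 0.172). Chrna7, which forms channels from alpha 7 alone, had 3.42, 4.28 and 4.17 RPKM in the Luc and 4.56, 4.83 and 4.20 in the Sfpq libraries (log2 fold change 0.18, 95% interval -0.10 to 0.45, limma adjusted p = 0.275). For both genes the groups overlapped, and each interval includes a change as large as that of Chrna3 in 1 direction, downward for Chrnb2 and upward for Chrna7. Chrnb2 overlaps Adar, an RNA editing enzyme gene that rose (0.32, SE 0.11, limma adjusted p = 0.0421). Of the genes beside Chrnb2, Kcnn3 fell from 0.815 to 0.304 RPKM (-0.71, SE 0.13, limma adjusted p = 0.00242). Kcnn3 passed the filter only through its Luc libraries. Ube2q1 on the other side did not pass (-0.14, limma adjusted p = 0.239). The part of these neighbours in the values of Chrnb2 was not tested. The ratio of Chrna3 to Chrnb2, chosen after the values were seen, was 6.65, 6.18 and 7.501 in the Luc and 11.5, 8.78 and 9.58 in the Sfpq libraries (two-sided exact permutation p = 0.1, the smallest possible). The ratio to Chrna7 overlapped between groups, with means of 7.39 and 7.76 (exact permutation p = 0.6). Of 6 such ratios computed between subunit genes, those to Chrnb2 and Chrna5 were the ones without overlap.

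**Figure D3:**
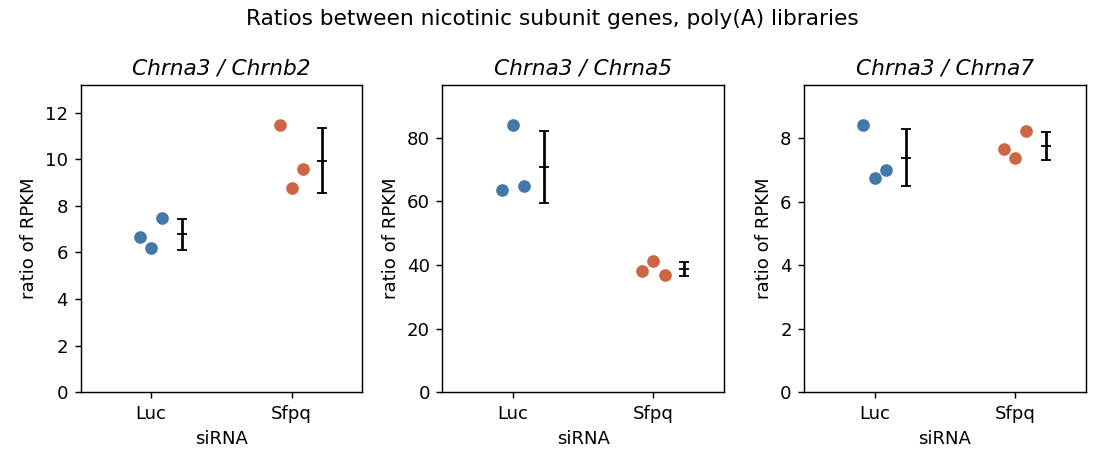
Ratio of Chrna3 RPKM to that of Chrnb2, Chrna5 and Chrna7 in the 3 Luc (blue) and 3 Sfpq (orange) poly(A) libraries; points are libraries and bars the mean ± SD. The ratio to Chrnb2 is higher and the ratio to Chrna5 lower in every Sfpq library, and the ratio to Chrna7 overlaps.

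The start sites of these genes are shown because they moved in opposite directions. Of 11 receptor genes named with their values, 10 matched a RefSeq promoter table of assembly GRCm38.p6. The 250 bases before the annotated start are printed 5′ to 3′ on the strand of the gene, with GC boxes (GGGCGG on either strand, overlapping copies counted) in capitals. They are Chrnb1 at chr11:69795938-69796187 (minus strand), Chrna3 at chr9:55026563-55026812 (minus strand), the first of 2 starts of Chrna5 at chr9:54980630-54980879 (plus strand), Chrm4 at chr2:91921939-91922188 (plus strand) and Gria2 at chr3:80802836-80803085 (minus strand).
Chrnb1: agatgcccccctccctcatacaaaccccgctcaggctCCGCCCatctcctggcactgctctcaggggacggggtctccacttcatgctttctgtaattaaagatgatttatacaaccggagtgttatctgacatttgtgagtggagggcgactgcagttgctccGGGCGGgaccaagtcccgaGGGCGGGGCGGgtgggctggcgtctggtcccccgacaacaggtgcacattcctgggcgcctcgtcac
Chrna3: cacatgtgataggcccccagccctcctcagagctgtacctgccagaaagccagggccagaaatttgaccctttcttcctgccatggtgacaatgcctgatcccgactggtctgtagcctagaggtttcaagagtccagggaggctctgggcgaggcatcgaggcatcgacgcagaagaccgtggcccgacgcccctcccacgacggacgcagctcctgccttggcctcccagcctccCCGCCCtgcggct
Chrna5: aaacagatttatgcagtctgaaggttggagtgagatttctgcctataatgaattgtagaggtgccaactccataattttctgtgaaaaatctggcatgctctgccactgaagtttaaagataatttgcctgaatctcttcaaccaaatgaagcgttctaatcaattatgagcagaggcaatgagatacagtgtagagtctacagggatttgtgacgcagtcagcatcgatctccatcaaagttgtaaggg
Chrm4: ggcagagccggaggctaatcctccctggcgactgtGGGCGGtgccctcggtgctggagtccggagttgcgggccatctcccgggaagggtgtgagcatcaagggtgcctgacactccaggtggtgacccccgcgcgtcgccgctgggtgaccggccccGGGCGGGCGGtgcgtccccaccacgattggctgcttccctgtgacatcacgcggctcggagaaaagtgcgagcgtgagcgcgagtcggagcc
Gria2: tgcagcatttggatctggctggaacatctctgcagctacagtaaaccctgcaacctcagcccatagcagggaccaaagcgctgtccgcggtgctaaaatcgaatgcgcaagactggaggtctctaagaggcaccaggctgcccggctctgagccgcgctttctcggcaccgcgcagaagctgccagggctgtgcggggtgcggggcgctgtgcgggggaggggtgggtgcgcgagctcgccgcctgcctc

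A GC box occurs in 32.7% of the 32851 windows of the same length in the table. Chrnb1, which rose, held 4 and Chrm4, which fell, held 3, while Chrna3 held 1 and Chrna5 and Gria2 had 0 in these windows. TATAAA on either strand, found in 12.4% of windows, occurred 1 time in Chrnb1 and not in the other sequences. The GC content was 60.4% for Chrnb1, 63.2% for Chrna3, 40.0% for Chrna5, 70.0% for Chrm4 and 64.8% for Gria2, beside a median of 52.4% over all windows. These letters describe the reference sequence of a few windows chosen by the change of their genes and were not tested against it.

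Htr3a encodes the serotonin-gated channel subunit that can form channels by itself. It had 12.02, 11.2 and 12.1 RPKM in the Luc and 16.7, 16.7 and 17.5 in the Sfpq libraries. All Sfpq libraries lay above all Luc libraries, a 1.44-fold rise, with means of 11.8 ± 0.477 and 16.97 ± 0.440 RPKM (SD, n = 3; log2 fold change 0.51, SE 0.10, limma adjusted p = 0.00278). Its second RefSeq row gave the same change (0.50, limma adjusted p = 0.00303 over all rows). The neighbouring Htr3b, a partner subunit gene, was at 0.252 RPKM in Luc and 0.247 in Sfpq libraries, below the threshold. None of the 12 genes for G-protein-coupled serotonin receptors exceeded 0.24 RPKM, the highest being Htr6.

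Chrm4 encodes the M4 muscarinic receptor, which couples to inhibitory G proteins, and was the one receptor gene of the G-protein-coupled kind above the threshold. It had 7.21, 8.03 and 7.21 RPKM in the Luc and 4.92, 5.19 and 4.99 in the Sfpq libraries. The groups did not overlap, and the Sfpq mean was 67.2% of that in Luc (-0.53 on the log2 scale, SE 0.10, limma adjusted p = 0.00367). Its neighbours Ambra1 (0.01, limma adjusted p = 0.967) and Dgkz (0.43, limma adjusted p = 0.0826) did not pass, and Mdk, which overlaps it, was at 0.266 RPKM in Luc and 0.389 in Sfpq libraries. Chrm1, Chrm2, Chrm3 and Chrm5 did not exceed 0.0955 RPKM.

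Ionotropic glutamate receptor genes above the threshold did not pass. Grik5, the GluK5 kainate subunit gene, had 11.4, 13.6 and 9.86 RPKM in the Luc and 10.1, 13.9 and 13.8 in the Sfpq libraries (log2 fold change 0.11, 95% interval -0.24 to 0.47, limma adjusted p = 0.601). Zfp574, which overlaps it, did not pass either (-0.24, limma adjusted p = 0.216). Grin1 had 2.33, 1.99 and 1.98 RPKM in the Luc and 1.64, 2.00 and 1.81 in the Sfpq libraries (log2 fold change -0.17, 95% interval -0.44 to 0.11, limma adjusted p = 0.311). Grin2d, the GluN2D subunit gene, had 1.23, 1.26 and 0.783 RPKM in the Luc and 0.855, 1.00 and 1.07 in the Sfpq libraries (log2 fold change -0.10, 95% interval -0.44 to 0.25, limma adjusted p = 0.648). In all 3 genes the groups overlapped. On the scale of log2(RPKM + 0.5), the intervals leave room for changes of up to 0.47 for Grik5 and 0.44 for the NMDA genes. In RPKM itself these bounds are wider, most of all for Grin2d, the lowest of the 3.

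**Figure D4:**
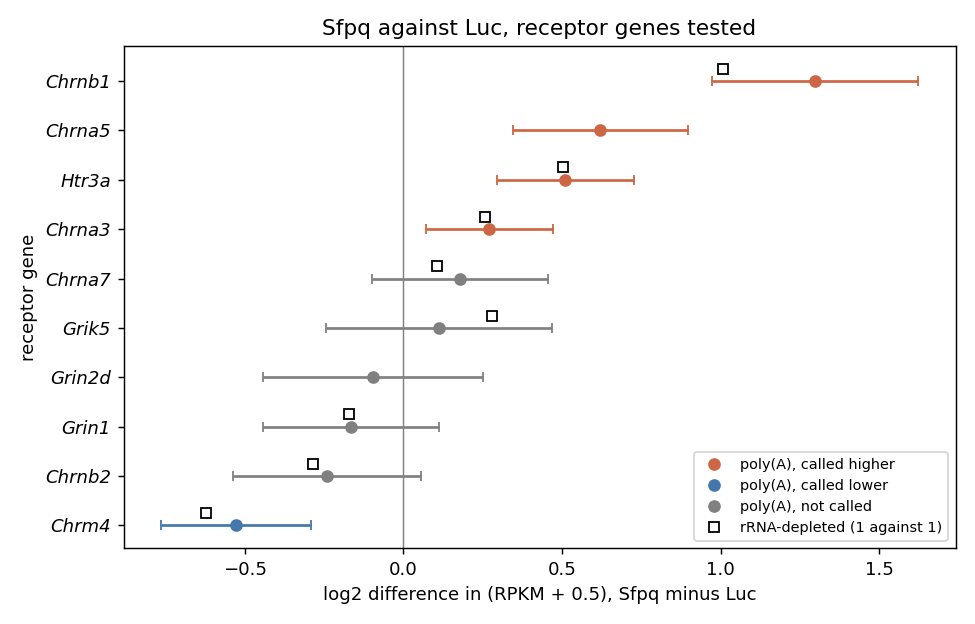
Log2 difference in RPKM + 0.5, Sfpq minus Luc, for the 10 receptor genes tested in poly(A) RNA (circles, with 95% intervals from limma; orange called higher, blue called lower, grey not called), and the log2 ratio of the single rRNA-depleted libraries (open squares) where their mean reached 0.5 RPKM. The values run from -0.53 for Chrm4 to 1.30 for Chrnb1, and each square lies on the same side of 0 as its circle.

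Gria2 missed the threshold through its low Sfpq values. It is tested here with no filter on low values. Gria2, the AMPA subunit gene whose edited product makes the channel impermeable to calcium, had 0.485, 0.831 and 0.835 RPKM in the Luc and 0.151, 0.264 and 0.363 in the Sfpq libraries. Every Sfpq library lay below every Luc library, with the Sfpq mean at 36.1% of the Luc mean.

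With no filter, limma tested 17014 genes, of which 28.0% were called, 14.6% higher and 13.3% lower. Gria2 passed (log2 fold change -0.68, SE 0.16, limma adjusted p = 0.0222). The Gria2 call ended without Luc replicate 2 (-0.61, limma adjusted p = 0.0591), Sfpq replicate 1 (-0.57, 0.0643) or Sfpq replicate 2 (-0.69, 0.0666). Of the 47 receptor genes with any poly(A) reads, 4 were then lower and 5 higher: beside the genes already named, the GABA-A delta subunit gene Gabrd (means of 0.288 and 0.0674 RPKM; -0.47, limma adjusted p = 0.0122) and Chrm3 (-0.14, 0.00868) were called lower and Grik3 (0.09, 0.0437) higher. Chrm3 and Grik3 did not exceed 0.0614 RPKM, where the added 0.5 leaves almost no spread. The other 2 RefSeq rows of Gria2 were also lower in every Sfpq library.

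RNA depleted of rRNA, with 1 library per group, has no replicate check and no test. Among the 9 receptor genes that averaged 0.5 RPKM or more there, Chrnb1 was past 2-fold higher and 0 were past 2-fold lower. Over 11386 genes, 6.83% were past 2-fold, 5.18% lower and 1.65% higher. The call of Chrnb1 ended with a pseudocount of 1, while Gria2 was past 2-fold lower with 0.1. Chrnb1 went from 0.445 to 1.40 RPKM (log2 ratio 1.01). Gria2 went from 1.01 to 0.335 RPKM (-0.86), Chrm4 from 6.90 to 4.31 (-0.62) and Htr3a from 6.87 to 9.94 (0.50). Chrna3 went from 21.6 to 25.9 RPKM (0.26), close to its poly(A) change of 0.27. In the rows used, Chrna7 (0.11), Grin1 (-0.17), Grik5 (0.28) and Chrnb2 (-0.29) also stayed within 0.29. All 8 genes tested in both kinds of RNA had the same sign in both. For Grin1 the size depended on the RefSeq row. The row used went from 0.648 to 0.519 RPKM, and its other rows fell further, from 0.832 to 0.526 and from 0.845 to 0.535. The other 2 genes tested in poly(A) RNA, both under 0.5 RPKM on average here, had opposite signs in the 2 kinds of RNA. Chrna5 had 0.177 RPKM for Luc and 0.114 for Sfpq, both below every poly(A) value of the gene, and Grin2d had 0.447 for Luc and 0.533 for Sfpq.

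Receptors reach the membrane with scaffolds, chaperones and auxiliary subunits, and a list of 59 such genes was read from the same fit. Of 33 tested, 7 rose, 10 fell and 16 did not pass, with a median log2 change of 0.04 (limma, adjusted over all genes). The 4 largest changes in this list were falls, and the other falls were of 0.80 log2 units or less. Cacng3, an auxiliary subunit gene of AMPA receptors, went from 11.8, 12.96 and 13.4 RPKM in the Luc to 1.38, 1.67 and 2.06 in the Sfpq libraries (log2 fold change -2.60, SE 0.14, limma adjusted p = 1.96e-06). Grip1, an AMPA receptor-binding scaffold, had Luc and Sfpq means of 14.0 ± 0.868 and 2.18 ± 0.179 RPKM (SD, n = 3; log2 fold change -2.44, limma adjusted p = 1.18e-06), and Dlg2, a scaffold of NMDA receptors, fell from 2.00 to 0.330 RPKM (-1.59). The Sfpq mean of Dlg2 was under the filter of 0.5 RPKM, which the gene passed only through its Luc libraries. Gphn, whose product gephyrin anchors GABA-A and glycine receptors, fell by 1.43 on the log2 scale.

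Among the rises were Cnih2 (log2 fold change 0.90), another AMPA receptor auxiliary gene, Dlgap3 (0.80), Pick1 (0.62), which binds AMPA receptors, and Ric3 (0.60), a chaperone of nicotinic and serotonin-gated channels. Ric3 had 5.06 ± 0.810 RPKM in Luc and 7.88 ± 0.382 in Sfpq (limma adjusted p = 0.00513). Gphn and Ric3 fall outside the rule for named genes and were chosen after their values were seen. AMPA receptor partners thus moved in both directions while the AMPA subunit genes other than Gria2 did not exceed 0.0183 RPKM.

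**Figure D5:**
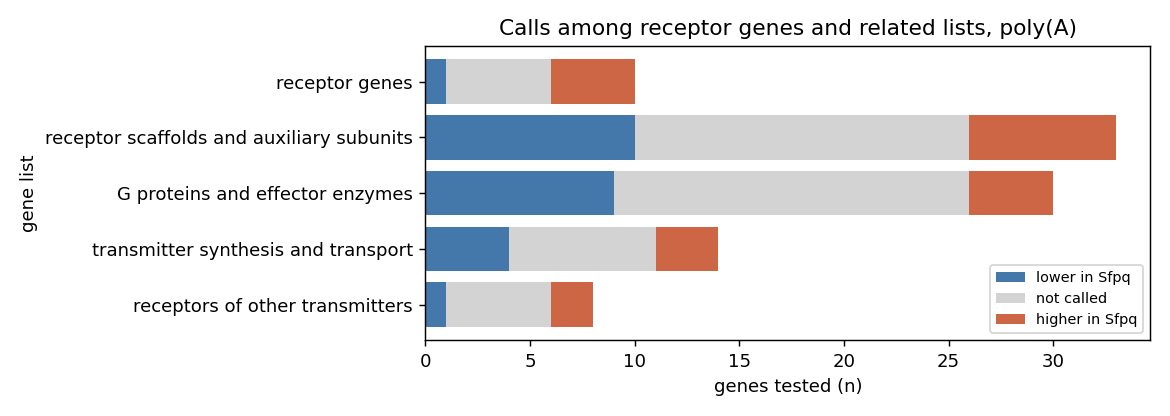
Number of genes tested in poly(A) RNA that were lower (blue), not called (grey) or higher (orange) in Sfpq libraries, for the receptor genes and 4 related lists. The receptor genes have 1 lower and 4 higher of 10, and the scaffold list 10 lower and 7 higher of 33.

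Of 30 tested genes for G proteins and their effectors, 4 rose, 9 fell and 17 did not pass (median 0.05). The largest falls were in the protein kinase C genes Prkca (2.68 ± 0.237 to 0.135 ± 0.0216 RPKM, SD, n = 3; log2 fold change -2.32, limma adjusted p = 1.96e-06) and Prkce (-2.26), and in Gnao1 (-1.84), the G-protein alpha subunit gene abundant in neurons. Prkca and Prkce passed the filter only through their Luc libraries, as their Sfpq means (0.135 and 0.211 RPKM) were under 0.5. Plcb4, a phospholipase C gene, fell by 1.79 and was chosen after its value was seen. Grk5 (0.86), a receptor kinase, Adcy6 (0.76), an adenylyl cyclase, and Gnai3 (0.54), an inhibitory G-protein alpha subunit gene, rose.

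Genes of transmitter synthesis and transport had 14 tested, of which 3 rose, 4 fell and 7 did not pass (median -0.06). Abat, the enzyme gene of GABA breakdown, fell from 10.1 ± 0.818 to 1.96 ± 0.246 RPKM (SD, n = 3; log2 fold change -2.11, limma adjusted p = 3.72e-06). Of the tryptophan hydroxylase genes for serotonin synthesis, Tph2 fell (-0.72) and Tph1 rose (0.66), the dopamine beta-hydroxylase gene Dbh rose (0.54), and the glycine transporter gene Slc6a9 fell by 0.48. Among receptors of other transmitters, 8 were tested, and P2rx3, an ATP-gated channel gene of sensory neurons, fell (means of 6.36 ± 0.271 and 1.44 ± 0.0897 RPKM, SD, n = 3; log2 fold change -1.82, limma adjusted p = 4.39e-06). The dopamine receptor gene Drd4 (0.122 ± 0.0638 to 0.946 ± 0.223 RPKM, SD, n = 3) and the histamine receptor gene Hrh3 (0.422 ± 0.157 to 1.26 ± 0.203) rose. Both were chosen after their values were seen and passed the filter only through their Sfpq libraries. The other 5 did not pass. Shares called in these lists stand beside 21.3% higher and 18.6% lower over all genes, and nothing particular to a list is read from them.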

How the data were processed

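RNA of Neuro-2a cells treated with siRNA against luciferase or Sfpq was sequenced on an Ion Proton instrument, as the labels' protocols state. Sample titles give group and replicate; the description of Sfpq poly(A) replicate 2 gives another number. Each deposited file holds RPKM for 30978 RefSeq rows of 1 library, per the file headers; alignment with TopHat2 2.0.10 and build mm9 are named in the submitters' processing notes, while how RPKM was computed, strand use and filters included, is unstated. As the unit keeps no read counts, no counting interval can be given. Relative depth came from steps between low values: 84.5% to 91.0% of pairs lay within 0.002 (natural log) of a quotient of integers no larger than 20. Identifiers of 30507 rows (98.5%) were matched to symbols with a table of GRCm38.p6, used for names and gene order.

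Members were compared with limma 3.58.1 (R 4.3.3, trended prior) on log2(RPKM + 0.5), fitted over all 11727 genes averaging 0.5 RPKM or more in the 6 poly(A) libraries. Limma was also tested on simulated data (11727 genes, noise drawn per gene), in which most genes were left unchanged. There it called 34.3% of changes of 0.5 log2 units, 98.5% of changes of 1 and 0.0434% of unchanged genes. In the measured libraries 40.0% of genes were called, and whether these shares carry over to them was not tested. Ratios used an exact permutation test. Figures and tables used Python 3.11.15 with numpy 2.4.6, pandas 2.3.3, scipy 1.17.1 and matplotlib 3.10.9. Alternatives were pseudocounts of 0.1 and 1, no filter, a minimum of 2 RPKM, median-ratio scaling, quantile normalization, no trend, a replicate block, the mean of all rows and leaving out each library. All members at 0.5 RPKM were named, and from each related list the 3 largest called changes up and down among genes averaging 1 RPKM or more. Of the genes that fit the prefixes, 4 receptor genes are not reported here: they stayed in the fits over all genes and enter no count, sum, median or figure of members. The plot by family leaves out families described in part. Members and lists were chosen with earlier results of these data known.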

Additional observations from a re-analysis of the deposited data

Results flagged for a closer look

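Chrna5, the accessory nicotinic subunit gene, moved in opposite directions in the 2 kinds of RNA. Every Sfpq poly(A) library was above every Luc poly(A) library (log2 fold change 0.62, limma adjusted p = 0.00355), whereas the single Sfpq rRNA-depleted library was below the Luc library (0.114 against 0.177 RPKM, log2 ratio -0.14). The gene passed the poly(A) filter only through its Sfpq libraries, and with no filter its limma adjusted p was 0.00251. The difference between the kinds of RNA was not tested, and both rRNA-depleted values lie under 0.5 RPKM.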

How the results depend on the processing

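The calls of Chrnb1, Chrna5, Htr3a and Chrm4 held in direction and threshold under every alternative in which the gene was tested, and the 5 genes that did not pass stayed so (139 values over the 10 genes kept their side of the threshold, and the 7 that lost it were all of Chrna3). Except in the fit with no filter, Chrna5 was tested only through its high Sfpq values. Of the members called, 2 were higher with a minimum mean of 2 RPKM, which removes Chrnb1 and Chrna5, and 4 were lower with no filter, which adds genes. Without 1 library each, 3 to 4 were higher and 1 to 2 lower, the added one being Gria2, which then passes the filter through its Luc libraries. The members' median was -0.0068 with no filter and between 0.037 and 0.23 without 1 library. In rRNA-depleted RNA, 0 genes were past 2-fold higher with a pseudocount of 1 and 1 was past 2-fold lower with 0.1. Whether replicate numbers pair the libraries is not stated, and the correlations of deviations for equal numbers (0.327, -0.035 and 0.157) do not settle it. Luc replicate 1 correlated best with Sfpq replicate 1. Luc replicates 2 and 3 each correlated better with a Sfpq library of another number (0.092 and 0.166). With a replicate block, 3 were higher and 1 lower, and Chrna3 did not pass (limma adjusted p = 0.0625). Summing rows put 11 members at 0.5 RPKM, and 9 reached 1 RPKM. Precision at low levels is limited by the unknown depth.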

Other observations

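Receptor genes differed in how their Luc level in poly(A) RNA compared with that in rRNA-depleted RNA. The background was 11574 genes with a Luc poly(A) mean of at least 0.5 RPKM and a rRNA-depleted Luc value above 0. Their poly(A) mean was 1.43 times the rRNA-depleted value in the middle, with quartiles of 1.10 and 1.92. Grik5 (3.52 times), Grin1 (3.24), Grin2d (2.44) and Chrna5 (2.34) lay above the upper quartile, whereas Gria2 (0.707), Chrnb2 (0.789) and Chrm4 (1.08) lay below the lower. Chrna3, Chrnb1, Chrna7 and Htr3a lay between. Chrna5, with a Luc mean of 0.416 RPKM, is not itself among the background genes. The value of Grin1 depends on its RefSeq row. The row used had 2.10 RPKM in poly(A) against 0.648 in rRNA-depleted Luc RNA. Its other rows were less far apart, at 1.87 against 0.832 and 1.93 against 0.845. With 1 rRNA-depleted Luc library, in which 1 row held 19.6% of the summed RPKM, these are values without a test.

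The protease gene Htra2, which shares the serotonin receptor prefix, was at 88.3 RPKM in Luc and 74.1 in Sfpq libraries.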
